A study of Homo sapiens with 9 samples.

Results

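Cells make serine from the glycolytic intermediate 3-phosphoglycerate through PHGDH, PSAT1 and PSPH in the cytosol. Serine hydroxymethyltransferases then pass a carbon unit from serine to tetrahydrofolate, which leaves glycine, and folate enzymes of the mitochondrion oxidize that unit and release it as formate for the synthesis of nucleotides in the cytosol. Proliferating tumor cells are known for high levels of several of these enzymes, and the stress-responsive transcription factor ATF4 is known to activate many of their genes. In nuclear RNA of U2OS cells, the 8 genes examined here fell into 3 groups by their levels after knockdown of the pseudouridine synthase dyskerin or of its partner GAR1. PHGDH, PSAT1, PSPH and ALDH1L2 were higher than siControl after siDyskerin and lower after siGAR1. SHMT1, SHMT2 and MTHFD2 were lower after both knockdowns, and the MTHFD1L libraries overlapped between the groups.

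The 8 genes are the enzymes of serine synthesis and of the linked folate reactions, taken by name out of 58425 genes with a matched transcript. All 8 passed the filter on low counts that left 18444 genes for testing. SHMT1 works in the cytosol and SHMT2, MTHFD2, MTHFD1L and ALDH1L2 in the mitochondrion. The genes were chosen by their counts in these same libraries, because some of them moved in opposite directions in the comparisons of siControl, siDyskerin and siGAR1 given below. Their levels and differences are therefore a description, and no test of them is reported.

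U2OS is a human osteosarcoma cell line. They received siControl, siDyskerin (against DKC1, the gene of dyskerin) or siGAR1 at 15 nM, and after 48 hours RNA was taken from their nuclei, depleted of ribosomal RNA and sequenced. Each group had 3 replicates, 9 libraries in all, from the same parental line and without any other genetic change named in the labels. Dyskerin and GAR1 are core proteins of the H/ACA complex, in which a guide RNA directs the conversion of uridine to pseudouridine. The measurement covers nuclear RNA only, so it holds no values for RNA in the cytoplasm or for protein. The study describes the replicates as biological, and p-values measure the spread between them.

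Estimated counts summed over all transcripts were between 48838756 and 90698675 per library, with a read counted for each transcript it fitted. They are thus not numbers of reads sequenced. The siRNA targets followed the labels. DKC1 normalized counts were 20937, 22716 and 20777 in siControl and 3075, 3124 and 3099 in siDyskerin. GAR1 normalized counts were 598, 594 and 664 in siControl and 92.3, 83.9 and 115 in siGAR1. Of the osteoblast lineage markers, RUNX2, ALPL, COL1A1 and SPARC were present, whereas SP7, COL1A2 and IBSP were at or near 0, with no library above 1.23, 5.70 and 0.77 normalized counts. The summed osteoblast marker level overlapped between groups, at 48659 to 56899 in siControl, 52834 to 55893 in siDyskerin and 49235 to 53496 in siGAR1. Most of this sum was SPARC (median 46668 normalized counts over the libraries), and DESeq2 called 1 osteoblast marker higher after each knockdown. Of 9 epithelial markers 6 passed the filter, and their summed level was 52006 to 59747 in siControl, 78086 to 78939 in siDyskerin and 64793 to 77532 in siGAR1, almost all of it KRT8 and KRT18. The epithelial marker sum was thus higher in both knockdowns than in siControl, and its part in the results below was not tested.

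Promoter sequences were looked up first, because 4 of the 8 genes shared a pattern across the groups. The RefSeq promoter table (GRCh38.p14) held PHGDH, PSAT1, SHMT1, MTHFD2 and MTHFD1L, 5 of the 8 genes, and did not hold PSPH, SHMT2 and ALDH1L2. The stretches shown are those upstream of the start that no annotated exon covers, for PHGDH (chr1:119711684-119711736, plus strand, the far end of the window) and PSAT1 (chr9:78296875-78297124, plus strand, up to the start), which had opposite signs in the 2 knockdowns. The third is the 30 bases around the motif match of MTHFD1L (chr6:150866346-150866375, plus strand), the gene that differed least.
PHGDH: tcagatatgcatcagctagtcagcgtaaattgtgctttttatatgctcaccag
PSAT1: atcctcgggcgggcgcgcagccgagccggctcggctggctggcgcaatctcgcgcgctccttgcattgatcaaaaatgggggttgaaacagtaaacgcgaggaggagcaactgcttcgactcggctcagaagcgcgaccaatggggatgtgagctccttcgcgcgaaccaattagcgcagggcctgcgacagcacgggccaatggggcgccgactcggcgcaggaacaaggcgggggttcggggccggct
MTHFD1L: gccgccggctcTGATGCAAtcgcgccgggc
The capitals mark the match to TGATGNAA, the composite element to which ATF4 and C/EBP proteins are known to bind together, searched on both strands. It occurred in the 250 bases upstream of 3.14% of the 35116 promoter entries of all genes. Among the entries of these genes it was found for MTHFD1L alone, at chr6:150866357-150866364, which is 129 bases before one annotated start and inside the first exon of a transcript that starts farther upstream. The windows of PHGDH, PSAT1, SHMT1 and MTHFD2 do not hold these letters, which says nothing about binding outside the windows or to other letters.

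PHGDH, the dehydrogenase that commits 3-phosphoglycerate to serine synthesis, lies on chromosome 1 (GRCh38, positions 119648411 to 119744218). Its normalized counts were 58804, 55057 and 54246 in siControl, 76453, 71438 and 71277 in siDyskerin and 38513, 42062 and 42455 in siGAR1. All 3 siDyskerin libraries were above and all 3 siGAR1 libraries below the siControl range. The means were 56036 ± 2432 (SD, n = 3) in siControl, 73056 ± 2943 in siDyskerin and 41010 ± 2171 in siGAR1. The log2 difference was 0.38 (SE 0.06) for siDyskerin against siControl, a ratio of 1.30, and -0.45 (SE 0.06) for siGAR1, a ratio of 0.732. Because the RNA came from bulk cultures, a change in the number of cells that express a gene and a change in RNA per cell cannot be told apart, here and for every gene below.

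PSAT1, the aminotransferase of the middle step, lies on chromosome 9 (positions 78297125 to 78330093). PSAT1 normalized counts were 3447, 3274 and 3279 in siControl, 3605, 3920 and 3676 in siDyskerin and 2157, 2214 and 2075 in siGAR1. The siGAR1 libraries formed a separate low cluster, and the siDyskerin libraries stood only just above siControl, with a gap smaller than the SD within siDyskerin. The mean ratios were 1.12 for siDyskerin (log2 difference 0.16, SE 0.07) and 0.645 for siGAR1 (log2 difference -0.63, SE 0.07), which made PSAT1 the gene of the 8 that was lowest against siControl after siGAR1.

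PSPH, the phosphatase that releases serine, lies on chromosome 7 (positions 56011051 to 56051604, minus strand). Its normalized counts were 3458, 3442 and 3347 in siControl, 4337, 4443 and 4227 in siDyskerin and 2823, 2758 and 3193 in siGAR1. The siDyskerin libraries were well apart from siControl, and siGAR1 replicate 3 came close to the siControl range without entering it. The log2 differences were 0.34 (SE 0.07) for siDyskerin and -0.22 (SE 0.07) for siGAR1. Without siGAR1 replicate 3 the latter was -0.30, and this was the one value among the 8 genes that moved by more than 1 SD of the replicates when a library was left out or a setting changed.

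ALDH1L2, the mitochondrial dehydrogenase that oxidizes formyl-tetrahydrofolate to carbon dioxide with formation of NADPH, followed the serine synthesis genes (chromosome 12, positions 105019784 to 105107643, minus strand). ALDH1L2 normalized counts were 1047, 1053 and 1060 in siControl, 1420, 1440 and 1369 in siDyskerin and 696, 726 and 775 in siGAR1. No library of one group entered the range of another. Its log2 differences were 0.42 (SE 0.08) for siDyskerin and -0.52 (SE 0.08) for siGAR1, and 0.95 (SE 0.08) between the knockdowns, the widest of the 8 genes at a ratio of 1.93. The most-read ALDH1L2 transcript held 265 to 687 reads in a library, next to the least of the 8 genes, SHMT1, at 243 to 633 reads.

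**Figure D1:**
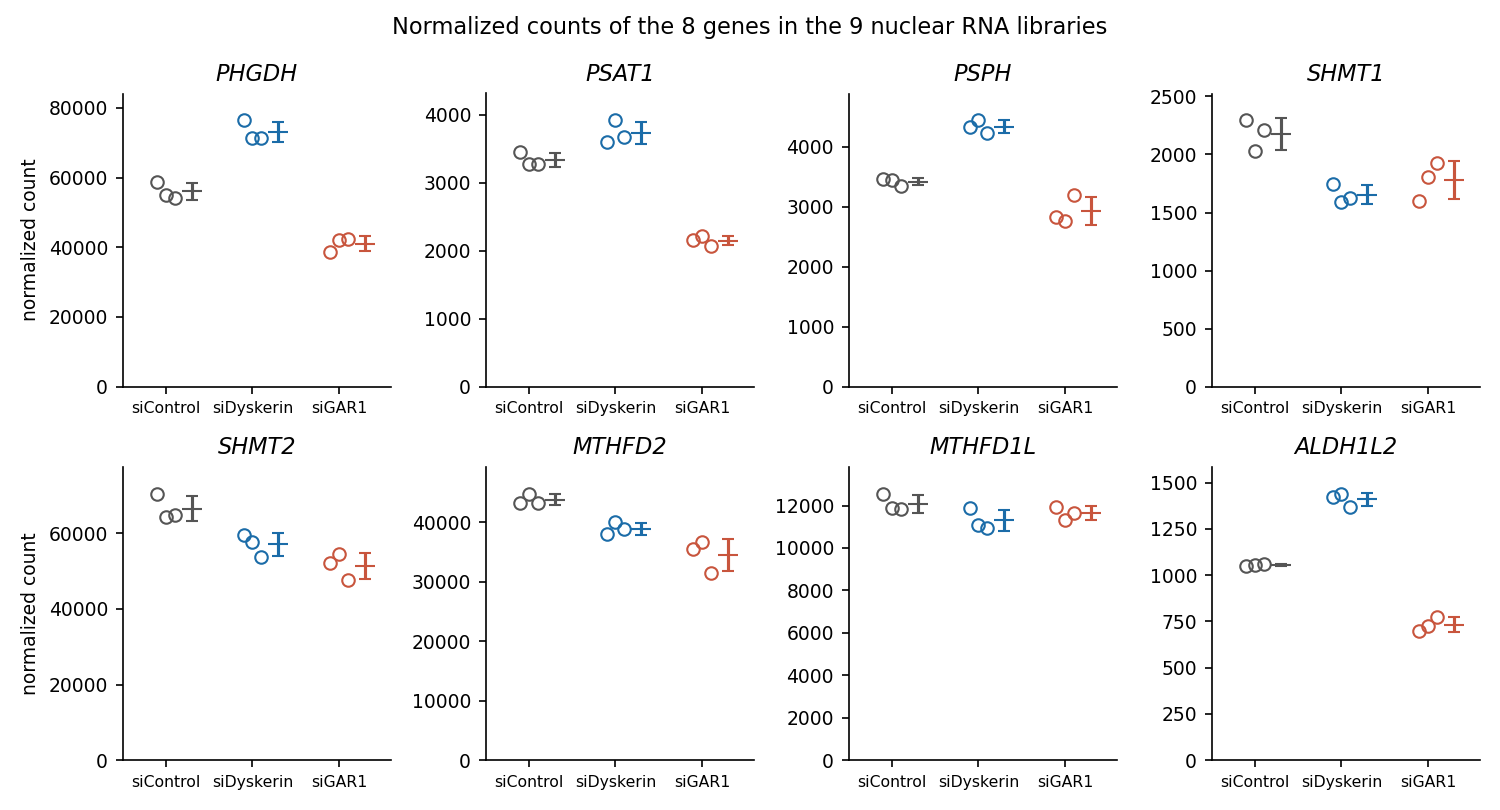
Normalized counts (linear axis from 0) of the 8 genes in each of the 9 libraries; open circles are libraries, and the bar beside them is the mean with its SD over 3 replicates. PHGDH, PSAT1, PSPH and ALDH1L2 rank siDyskerin, siControl, siGAR1 from high to low without overlap, SHMT1, SHMT2 and MTHFD2 are highest in siControl, and MTHFD1L overlaps throughout.

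SHMT2, the mitochondrial hydroxymethyltransferase, was lower than siControl in both knockdowns (chromosome 12, positions 57229573 to 57234935). SHMT2 had normalized counts of 70457, 64279 and 64821 in siControl, 59625, 57704 and 53755 in siDyskerin and 52231, 54389 and 47674 in siGAR1. The knockdown groups overlapped each other and neither reached siControl. The log2 differences were -0.22 (SE 0.07) for siDyskerin and -0.37 (SE 0.07) for siGAR1.

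SHMT1, its cytosolic counterpart, was also lower in both (chromosome 17, positions 18327860 to 18363563, minus strand). Its normalized counts were 2295, 2028 and 2214 in siControl, 1749, 1591 and 1625 in siDyskerin and 1603, 1803 and 1926 in siGAR1. The siGAR1 values were the more spread, and the highest of them lay below the lowest siControl value by less than their SD. The log2 differences were -0.40 (SE 0.08) for siDyskerin and -0.29 (SE 0.08) for siGAR1, so that SHMT1 was the gene of the 8 with the lowest siDyskerin value relative to siControl. An exon of SHMT1 overlaps the microRNA gene MIR6778 on the same strand and SMCR8 on the other strand, and the libraries keep the strand.

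MTHFD2, the mitochondrial dehydrogenase and cyclohydrolase, shared this direction (chromosome 2, positions 74186172 to 74217565). MTHFD2 had normalized counts of 43294, 44799 and 43226 in siControl, 37939, 39957 and 38810 in siDyskerin and 35421, 36645 and 31455 in siGAR1. The 3 groups were in the order siControl, siDyskerin, siGAR1 from high to low with no overlap. The log2 differences from siControl were -0.17 (SE 0.06) and -0.34 (SE 0.06).

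MTHFD1L, the synthetase that releases formate from the folate carrier, differed least (chromosome 6, positions 150865679 to 151101887). MTHFD1L had normalized counts of 12560, 11868 and 11822 in siControl, 11874, 11096 and 10927 in siDyskerin and 11948, 11313 and 11651 in siGAR1. Replicate 1 was the highest in each group, and the groups overlapped. The log2 differences were -0.10 (SE 0.06) for siDyskerin and -0.05 (SE 0.06) for siGAR1.

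The median log2 difference of the 8 genes was 0.03 after siDyskerin, -0.36 after siGAR1 and 0.37 between the knockdowns, beside 0.0033, 0.0089 and -0.0035 over all genes tested.

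The comparisons with siControl share the same control libraries, so a chance deviation in siControl enters both. The difference between siDyskerin and siGAR1 does not use siControl. It was 0.83 (SE 0.06) for PHGDH, 0.80 (SE 0.07) for PSAT1 and 0.57 (SE 0.07) for PSPH on the log2 scale. It was 0.15 (SE 0.07) for SHMT2, 0.17 (SE 0.06) for MTHFD2, -0.10 (SE 0.08) for SHMT1 and -0.04 (SE 0.06) for MTHFD1L. The siDyskerin and siGAR1 libraries overlapped for SHMT1, SHMT2 and MTHFD1L, and for MTHFD2 all siDyskerin libraries were above all siGAR1 libraries. Among the 18444 genes ranked by this difference, ALDH1L2, PHGDH and PSAT1 lay at the 98.9, 98.3 and 98.1 percentiles and PSPH at 95.7. The genes were chosen with opposite directions in view, so these high ranks follow in part from the choice. Ranked by siDyskerin against siControl, ALDH1L2, PHGDH, PSAT1 and PSPH lay at the 90.9, 89.5, 74.4 and 87.7 percentiles. Ranked by siGAR1 against siControl, they lay at 4.23, 5.98, 2.74 and 17.4.

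**Figure D2:**
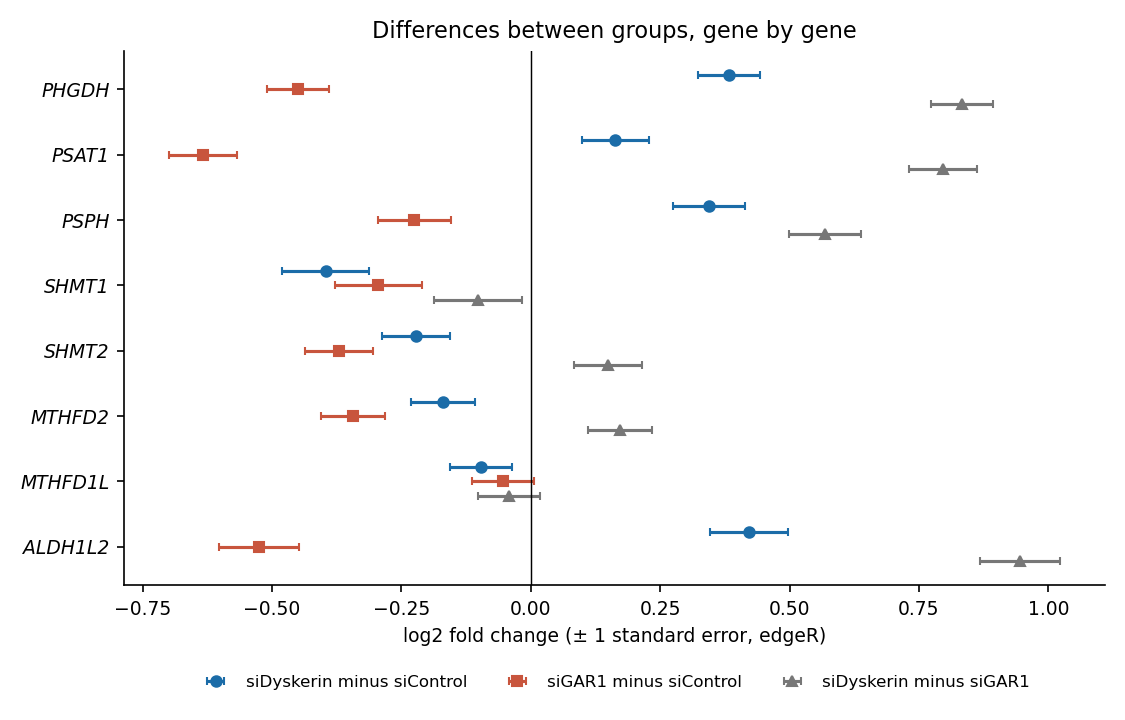
Log2 fold change on the horizontal axis with its edgeR standard error for each of the 8 genes; circles are siDyskerin minus siControl, squares siGAR1 minus siControl and triangles siDyskerin minus siGAR1. PHGDH, PSAT1, PSPH and ALDH1L2 have circles right of 0 and squares left of 0, and for SHMT1, SHMT2, MTHFD2 and MTHFD1L both lie left of 0.

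The genes differed widely in level. They were compared by normalized reads per kilobase of the most-read transcript. The order can depend on the transcript taken, and no other transcript was put on this scale. MTHFD2 was the highest in siControl at 3064 ± 70.8 (SD, n = 3), above 97.7% of the tested protein-coding genes. SHMT2 followed at 1676 ± 88.4, PHGDH at 1440 ± 34.1 and PSAT1 at 1139 ± 35.8. MTHFD1L stood at 781 ± 25.4, PSPH at 377 ± 6.39, SHMT1 at 169 ± 11.8 and ALDH1L2 at 57.8 ± 0.338. Every neighboring pair in this order was apart, with no overlap between the siControl libraries. ALDH1L2 was above 33.6% of them, so the mitochondrial enzymes held both ends of the order.

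On this scale of the most-read transcript, the order itself changed between groups at 2 places. In siDyskerin PHGDH was above SHMT2, with a level ratio of PHGDH to SHMT2 between 1.27 and 1.36 in the libraries. In siControl that ratio was 0.833 to 0.878 and in siGAR1 0.738 to 0.926, so only the siDyskerin libraries put PHGDH first. The level ratio of PSAT1 to MTHFD1L was 1.45 to 1.47 in siControl, 1.58 to 1.90 in siDyskerin and 0.941 to 1.02 in siGAR1. In siGAR1 these 2 genes overlapped, and they were the one neighboring pair of the order that did so in any group. The mitochondrial SHMT2 level was 9.34 to 10.3 times that of SHMT1 in siControl, 11.0 to 12.0 times in siDyskerin and 8.05 to 11.4 times in siGAR1. The siDyskerin ratios were above the siControl ratios, and the siGAR1 ratios spanned them.

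**Figure D3:**
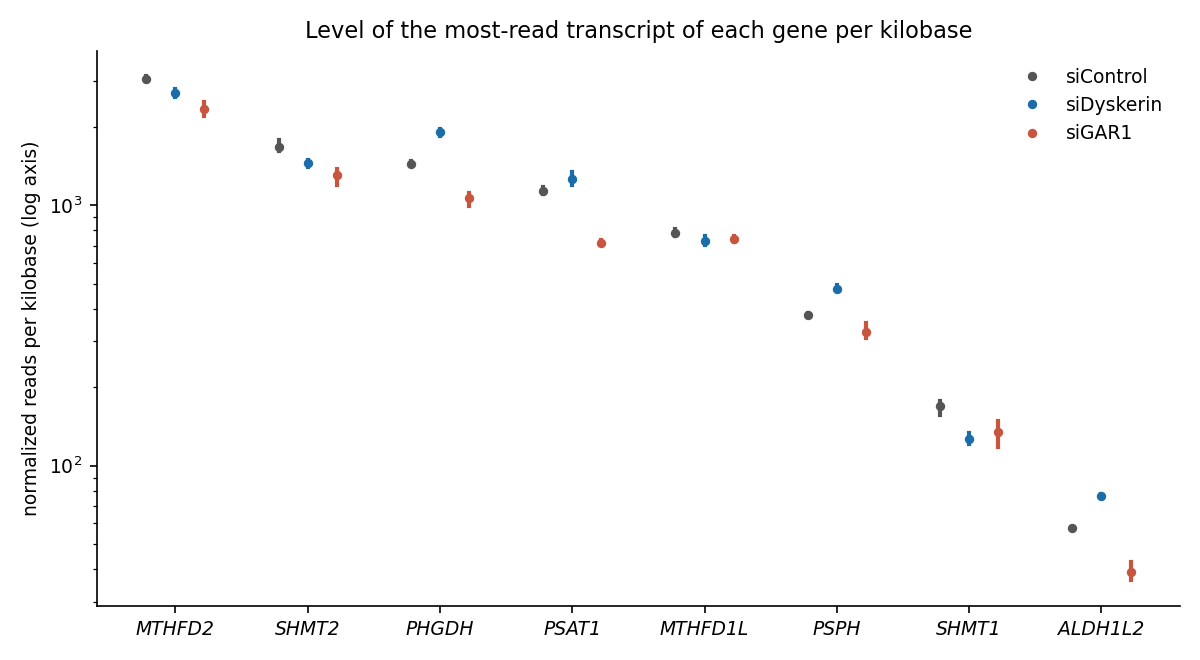
Normalized reads per kilobase (log axis) of the most-read transcript of each gene; points are group means over 3 libraries and vertical lines run from the lowest to the highest library, many of them shorter than the point. MTHFD2 is highest and ALDH1L2 lowest in every group, and PHGDH exceeds SHMT2 in siDyskerin only.

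Within each gene, annotated transcripts mostly moved together, as far as shared reads allow: a read that fitted several transcripts of a gene was counted for each of them, so the transcripts are not independent measurements. Of 34 PHGDH transcripts, 33 had a mean of at least 50 normalized reads, and all 33 were above siControl in siDyskerin, by 0.24 to 0.43 on the log2 scale, and below it in siGAR1, by values from -0.49 to -0.36. All 35 SHMT2 transcripts were below siControl in both knockdowns, from -0.26 to -0.17 in siDyskerin and from -0.44 to -0.31 in siGAR1. The 7 retained-intron transcripts of PHGDH had a median log2 difference of 0.38 in siDyskerin and -0.45 in siGAR1, beside 0.39 and -0.45 for its 10 protein-coding transcripts. Retained-intron and coding transcripts of SHMT2 also had close medians, -0.23 and -0.22 in siDyskerin and -0.40 and -0.41 in siGAR1. The medians of the transcript types were thus close to each other in both genes.

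The transcripts of PSPH were the most unequal in siDyskerin. Of 11 with enough reads, all were above siControl in siDyskerin, but PSPH-208 by 0.00 and PSPH-203 by 0.52. In siGAR1 the same 2 transcripts stood at -0.13 and -0.36, again the ends of the range. PSPH-208 and PSPH-203 were little read, with means of 76.0 and 95.4 normalized reads beside 745 for PSPH-202. SHMT1, the most unequal in siGAR1, had 7 of 8 transcripts below siControl there, and the exception, SHMT1-204, stood at 0.04. MTHFD1L had 8 of 9 transcripts below siControl in each knockdown, none by more than 0.11. Both PSAT1 transcripts, all 8 of MTHFD2 and all 3 of ALDH1L2 with enough reads had the direction of their gene. Pseudogenes named after PSAT1, PSPH, SHMT1 and MTHFD2 held few reads, with at most 7 reads in any library.

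**Figure D4:**
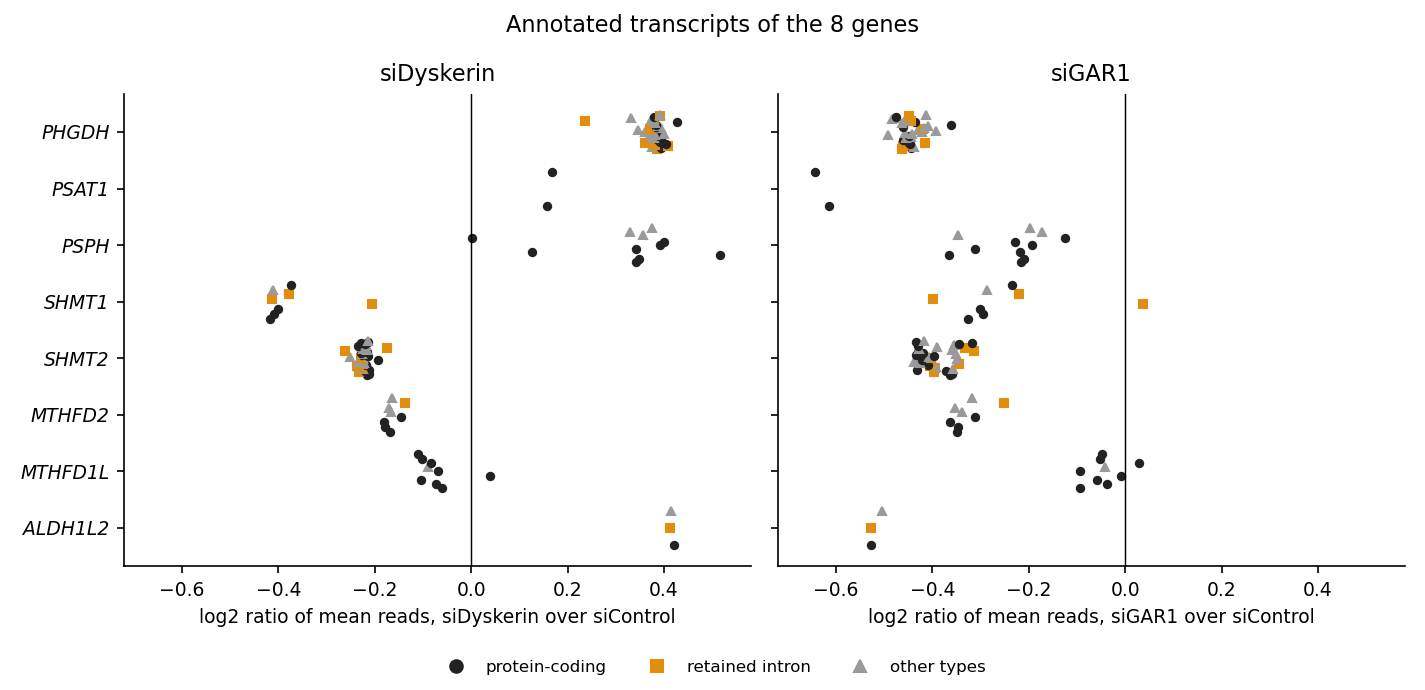
Log2 ratio of mean normalized reads over siControl (pseudocount 1) for each annotated transcript with a mean of at least 50 reads, siDyskerin at left and siGAR1 at right; circles are protein-coding, squares retained-intron and triangles other transcripts. The transcripts of PHGDH and SHMT2 form tight clusters and those of PSPH are spread from 0.00 to 0.52 in siDyskerin.

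Across the 9 libraries, log2 CPM of PHGDH and ALDH1L2 had a Pearson correlation of 0.991, and those of PSPH and ALDH1L2 of 0.971. SHMT2 and MTHFD2 had one of 0.919, and PHGDH with SHMT1 one of -0.11. These coefficients describe libraries that fall into 3 groups and share the choice of genes, so no p is attached. Among expressed protein-coding genes outside the 8, the closest to PSAT1 was ASNS, the asparagine synthetase, at 0.995, followed by ARG2, the mitochondrial arginase, at 0.993. The closest to ALDH1L2 was LBR, the lamin B receptor, at 0.991, and the closest to PHGDH was JPT2 at 0.988. HEATR6 was closest to PSPH at 0.990, and NUPR1, a stress-induced nuclear protein, came next at 0.985. The closest to SHMT2 were MRPL17, a protein of the mitochondrial ribosome, and MCM4, a subunit of the replicative helicase, at 0.982 and 0.981. APIP, an enzyme of the methionine salvage pathway, was closest to MTHFD2 at 0.983, TBL3 closest to SHMT1 at 0.972 and FBXO42 closest to MTHFD1L at 0.946.

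The reactions that supply and use serine, glycine and folate were followed in 139 further genes in 9 lists, of which 134 passed the filter. SDS, AGXT, GNMT, BHMT and BHMT2 did not pass it. After siDyskerin 8 of the 134 rose and 4 fell, after siGAR1 3 rose and 15 fell, and between the knockdowns 21 were higher and 3 lower in siDyskerin (edgeR quasi-likelihood test, adjusted p under 0.01 over all genes). After siDyskerin these were 5.97% and 2.99% of the tested genes of the lists, beside 3.08% higher and 3.32% lower over all genes tested. After siGAR1 they were 2.24% and 11.2%, beside 1.63% and 1.79%. Between the knockdowns they were 15.7% and 2.24%, beside 2.61% and 2.78%. The shares that fell after siDyskerin, rose after siGAR1 and were lower between the knockdowns were thus near those of all genes. The median log2 difference of these genes was -0.0003 after siDyskerin, -0.12 after siGAR1 and 0.11 between the knockdowns. Leaving out 1 library gave 7 to 14, 11 to 21 and 14 to 25 genes past the threshold in the 3 comparisons. The count of 7 came without siControl replicate 2 or 3 or siDyskerin replicate 2, that of 11 without siGAR1 replicate 1, and that of 14 without siDyskerin replicate 2 or siGAR1 replicate 1.

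SLC1A4, a neutral amino acid transporter of the plasma membrane that carries serine, had 2504, 2216 and 2176 normalized counts in siControl, 2447, 2214 and 2404 in siDyskerin and 1145, 1239 and 1294 in siGAR1. It fell after siGAR1 by 0.91 on the log2 scale (SE 0.08, adjusted p = 2.3e-05, edgeR) and was 0.03 (SE 0.08, adjusted p = 0.85) after siDyskerin. SFXN2, a member of the sideroflexin family of mitochondrial carriers, fell after both, by 0.72 (adjusted p = 6.4e-05) and 0.75 (adjusted p = 9.4e-05). SFXN3, of the same family, rose after siDyskerin by 0.37 (adjusted p = 0.0079), a call that was lost under 7 of 17 alternative settings, and was 0.08 (adjusted p = 0.58) after siGAR1. Of the 13 transport genes, 1 rose and 1 fell after siDyskerin and 2 fell after siGAR1. These were 7.69%, 7.69% and 15.4% of the list, beside 3.08%, 3.32% and 1.79% of all genes tested.

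The list for pathways that use serine or glycine had 16 tested enzymes, not all of which act on either amino acid themselves. GCLM, the modifier subunit of the enzyme that starts glutathione synthesis, rose after siDyskerin by 0.56 (adjusted p = 0.00018, edgeR). After siGAR1 GCLM rose by 0.45 (adjusted p = 0.002, edgeR). The siGAR1 call of GCLM was lost without siControl replicate 2, siGAR1 replicate 1 or siGAR1 replicate 2, with adjusted p up to 0.012. CTH, which makes cysteine from the serine-derived cystathionine, had 882, 796 and 793 normalized counts in siControl, 926, 951 and 867 in siDyskerin and 556, 507 and 515 in siGAR1. CTH fell after siGAR1 by 0.65 (adjusted p = 0.00059), with no overlap of the libraries. PTDSS2, a phosphatidylserine synthase, fell after siGAR1 by 0.67 (adjusted p = 0.0011). GLYCTK, the glycerate kinase, fell after siDyskerin by 0.64 (adjusted p = 0.0018), a call lost without siDyskerin replicate 2 at 0.011. In this list 1 gene rose and 1 fell after siDyskerin, each 6.25%, beside 3.08% and 3.32% of all genes tested. After siGAR1 1 rose and 2 fell, 6.25% and 12.5%, beside 1.63% and 1.79%.

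Of 17 folate cycle enzymes and carriers outside the 8, none passed after siDyskerin in the edgeR test, where 5 had an unadjusted p under 0.05 and DESeq2 also passed none. None of the 4 glycine cleavage genes passed in either knockdown against siControl in the edgeR test, with 0 and 1 of them at an unadjusted p under 0.05 and 0 called by DESeq2. In the methionine cycle, MTR, the methionine synthase that takes its methyl group from folate, rose after siDyskerin by 0.32 (adjusted p = 0.0035), and MAT2B, the regulatory subunit of methionine adenosyltransferase, fell by 0.45 (adjusted p = 0.001). The MTR call was lost without any 1 of the siControl libraries and without siDyskerin replicate 1 or 3, with adjusted p up to 0.031. No gene of the methionine cycle passed after siGAR1 in the edgeR test, where 3 of 10 had an unadjusted p under 0.05 and were lower, and DESeq2 called 1 lower.

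In glycolysis, which supplies the substrate of PHGDH, HK2, a hexokinase, rose after siDyskerin by 0.46 (adjusted p = 0.0025, edgeR), a call that 4 alternatives lost. PFKP, the platelet form of phosphofructokinase, fell after siGAR1 by 0.66 (adjusted p = 0.00013) and was -0.25 (adjusted p = 0.041) after siDyskerin. They were the genes of the 18 past the threshold in edgeR, 1 per knockdown. Each was 5.56% of the list, beside 3.08% of all genes tested that rose after siDyskerin and 1.79% that fell after siGAR1. After siGAR1, leaving out 1 library gave 1 to 3 glycolysis genes past the threshold, and DESeq2 called 3 lower. At an unadjusted p under 0.05, 9 were lower, beside 2246 of the 18444 genes tested. Of the 12 genes of purine synthesis, which consume the formate and glycine, PRPS2, a phosphoribosyl pyrophosphate synthetase, fell after siGAR1 by 0.32 (adjusted p = 0.0086), and 12 of 17 alternatives lost that call. None of the 12 passed after siDyskerin in edgeR, where 4 had an unadjusted p under 0.05 and DESeq2 called 1.

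ATF4 itself had 22686, 23293 and 20257 normalized counts in siControl, 23803, 25356 and 22421 in siDyskerin and 16633, 19632 and 15171 in siGAR1. The siGAR1 libraries lay below siControl and siDyskerin, and the siControl and siDyskerin libraries overlapped. The log2 difference of ATF4 was 0.11 (SE 0.09, adjusted p = 0.47, edgeR) after siDyskerin and -0.36 (SE 0.09, adjusted p = 0.021) after siGAR1, and it was higher in siDyskerin than in siGAR1 by 0.48 (SE 0.09, adjusted p = 0.0034). The siGAR1 difference passed the threshold under 5 of 17 alternatives, among them without siGAR1 replicate 2 (adjusted p = 0.005), and the difference between the knockdowns lost it under 4. Among the 18 regulators listed, NFE2L2, the transcription factor of the antioxidant response, rose after siDyskerin by 0.33 (adjusted p = 0.0034) and after siGAR1 by 0.39 (adjusted p = 0.0022). Leaving out 1 library ended the siDyskerin call of NFE2L2 in 5 cases and the siGAR1 call in 3, with adjusted p up to 0.035 and 0.013. MDM2, the ubiquitin ligase of p53, rose after siGAR1 by 0.41 (adjusted p = 0.0036), a call lost under 6 alternatives, and was 0.28 after siDyskerin (adjusted p = 0.023, and 0.0073 with the replicate block).

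Other known ATF4 targets, 26 genes that are not among the 8, had 3 genes that rose and 1 that fell after siDyskerin, and 8 that fell and none that rose after siGAR1 (edgeR, adjusted p under 0.01). After siDyskerin this was 11.5% and 3.85% of the list, beside 3.08% and 3.32% of all genes, so that the share that fell was near the background, and after siGAR1 30.8% fell, beside 1.79% of all genes. At an unadjusted p under 0.05, 1 was higher and 15 were lower after siGAR1, beside 2185 and 2246 of the 18444 genes tested. DESeq2 called 0 higher and 12 lower, and 1362 over all genes in either direction. Between the knockdowns 11 were higher in siDyskerin and 0 lower in edgeR, 42.3% and 0% of the list beside 2.61% and 2.78% of all genes. There DESeq2 called 14 higher and 1 lower, and 1767 over all genes in either direction. The median log2 differences of the 26 targets were 0.02 after siDyskerin, -0.31 after siGAR1 and 0.31 between the knockdowns. ASNS had 25176, 25319 and 24109 normalized counts in siControl, 25677, 28766 and 26573 in siDyskerin and 17059, 16990 and 16586 in siGAR1. ASNS fell after siGAR1 by 0.56 (adjusted p = 6.8e-05) and stood at 0.12 (adjusted p = 0.21) after siDyskerin, the order of groups seen for PSAT1. CHAC1, which degrades glutathione, fell after siGAR1 by 1.06 (adjusted p = 7.3e-05), and GPT2, the mitochondrial alanine aminotransferase, fell by 0.59 (adjusted p = 0.00018). SLC7A11, the cystine transporter, had a different pattern: it rose after siDyskerin by 1.09 (adjusted p = 2.9e-06) and was 0.16 (adjusted p = 0.28) after siGAR1. The list was drawn up with earlier results of these libraries known, so its counts are not independent evidence of a direction.

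**Figure D5:**
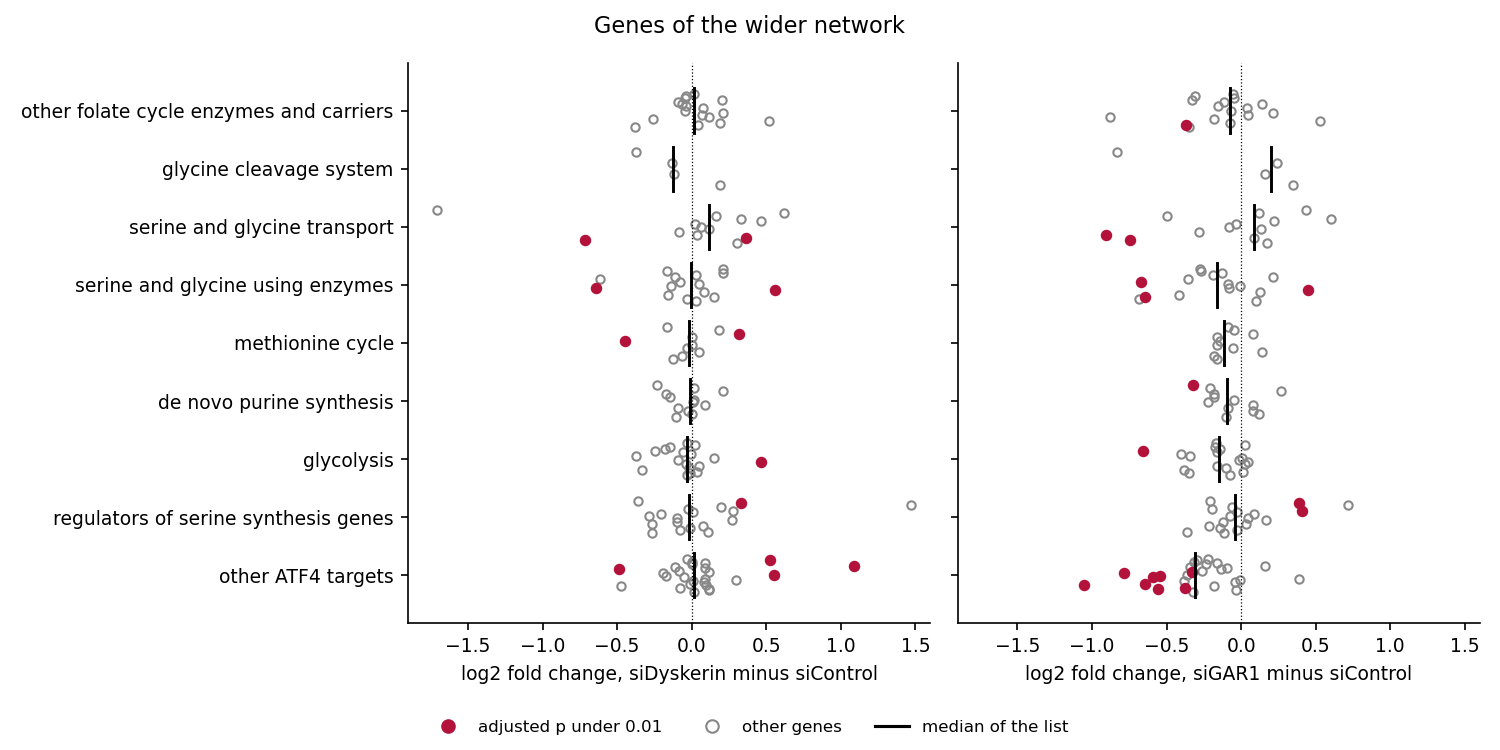
Log2 fold change of the 134 tested genes of the 9 lists, siDyskerin minus siControl at left and siGAR1 minus siControl at right; filled points have an adjusted p under 0.01 in edgeR, open points do not, and the black bar is the median of the list. In siGAR1 the bar of the other ATF4 targets lies at -0.31 with 8 filled points to the left of 0, and in siDyskerin it lies at 0.02.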

How the data were processed

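U2OS nuclear RNA was sequenced in 9 libraries, 3 each for siControl, siDyskerin and siGAR1. Per the paper's methods and the submitters' processing notes, quality control used FastQC 0.11.9, adaptors were cut with Trim Galore 0.6.4, ribosomal and transfer RNA was taken out with Bowtie2 2.4.1, and the authors ran Salmon 1.2.0 (stranded, with bias correction) on an earlier GENCODE transcriptome of GRCh38. The deposited files give estimated counts and TPM per transcript, as the authors' Salmon run wrote them. Nearly all estimated counts were whole, and a read that fitted several transcripts appears in each, so a sum over transcripts serves to compare groups for that gene, never genes with each other. The TPM values were used only for one alternative scaling.

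Transcripts were assigned to genes by identifier with GENCODE 44: 195887 of 200401 matched, to 58425 genes. The unmatched held 3.69 to 3.84% of the summed estimated counts. Estimated counts were summed per gene and rounded. The estimated counts of a library summed to 48838756 to 90698675, which is not the number of reads sequenced, because a read can be counted more than once. All 9 libraries were fitted together with edgeR 4.0.16 (R 4.3.3, limma 3.58.1): TMM factors, filterByExpr, the quasi-likelihood F-test (robust, two-sided) and Benjamini-Hochberg adjustment over 18444 genes. The threshold of 0.01 is the false discovery rate the study used. The study worked with DESeq2 and independent hypothesis weighting, and its gene counts also required an absolute log2 fold change above 1. That fold rule was applied here only as an alternative, so the counts are not like those of the study. Normalized counts are scaled to the mean effective library size. The fitting code was tested on simulated counts. Levels per kilobase divide the normalized reads of the most-read transcript by its effective length. Transcript ratios used a pseudocount of 1. Libraries of a group differed from each other (chi-square per gene from 8.41 to 34.2 on the gene sums), so none was an identical copy of another. Because a read can be counted for several transcripts, these values cannot be set against sampling noise.

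The titles give the replicates shared numbers. Deviations from the group means of same-numbered libraries correlated at 0.440, 0.320 and 0.180 between siControl and siDyskerin, at -0.192, -0.002 and 0.035 between siControl and siGAR1 and at 0.007, 0.126 and 0.242 between the knockdowns. The numbers were thus taken to pair siControl with siDyskerin only. The main fit did not use this pairing, so its standard errors and p-values are unpaired. The replicate block, an alternative, was applied to all 9 libraries, siGAR1 included.

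The 8 genes, the lists and the rules were chosen with earlier results of these data known. Named genes are the 8, the siRNA targets, ATF4, up to 4 genes per list that passed in either knockdown against siControl by smallest p, and the 2 protein-coding genes (mean log2 CPM of at least 3) most correlated with each of the 8; some genes of the lists are not reported here. Alternatives were DESeq2 1.42.0, other size factors, no filter, other gene counts, the replicate block, a fold threshold, only the libraries compared and leaving out each library.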

Additional observations from a re-analysis of the deposited data

How the results depend on the processing

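The 24 log2 differences of the 8 genes kept their sign under all 17 alternatives, and 407 of 408 values moved by less than 1 SD of the replicates. A group mean can shift by only a part of that group's SD when 1 of its 3 replicates is left out. Small shifts were thus largely fixed in advance for the alternatives that left out a library. The genes were chosen by these differences, so kept signs are no evidence of robustness. For all genes, the counts past the threshold were 1180, 630 and 994 for siDyskerin against siControl, siGAR1 against siControl and siDyskerin against siGAR1. They were 1986, 1408 and 1740 with no filter on low counts, 1929, 1362 and 1767 with DESeq2, and 173, 52 and 133 with a log2 difference above 1 required. Length-scaled TPM counts gave 391 for siGAR1 and 644 between the knockdowns, and the most-read transcript alone gave 1011 for siGAR1. Leaving out 1 library gave 701 to 1424, 289 to 583 and 462 to 1110. For the 134 genes of the wider lists the counts were 12, 18 and 24. They were 21 and 30 for the first 2 with no filter, 20, 31 and 38 with DESeq2, 1, 1 and 1 with the fold required, and 19 for siDyskerin with the most-read transcript. Leaving out 1 library gave 7 to 14, 11 to 21 and 14 to 25. With the replicate block the counts were 1318, 711 and 1050 over all genes and 16, 20 and 24 in the lists, and among the named genes it added the siDyskerin call of MDM2 and changed no other call of siDyskerin against siControl. The cause of these shifts was not tested. The siControl values enter both comparisons with it, and 3 libraries per group limit every call near the threshold.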
